A study of Citrus reticulata with 36 samples.

Results

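Nucellus of "Huagan No.4" ponkan (HG) was compared with nucellus of "Egan No.1" ponkan (EG) at 32 days after pollination (DAP). The comparison held 6 of the 36 libraries of the series, 3 of HG and 3 of EG, chosen by cultivar, tissue and stage, and differences are given as HG minus EG. Ponkan is a mandarin-type citrus (Citrus reticulata), and the series addressed seed abortion by profiling both cultivars in nucellus and integument at 18, 28 and 32 DAP. All 6 samples were ovule tissue cut out of sections with a laser under the microscope (laser capture microdissection), and none carried a transgene or a treatment in the labels. Nanogram amounts of total RNA were copied with random primers and amplified before sequencing, so each library reports amplified cDNA of a small cell mass. The labels state biological replicates but do not say from which tree, fruit or ovule a region was cut. P-values below reflect only how far libraries spread, and would be too small if regions shared a plant. In the main tests of single identifiers that spread was estimated from all 36 libraries, not from the 6 alone.

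The nucellus is the central maternal tissue of the ovule. It encloses the embryo sac, in which the embryo and the endosperm form after fertilisation, and it is usually broken down as these grow. In many citrus types its cells can also form embryos of their own, which are genetic copies of the mother plant. The integument lies around the nucellus and becomes the seed coat. Since RNA was measured in bulk, fewer cells of a type and less RNA per cell cannot be told apart.

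The measured features were gene identifiers that the files do not pair with a gene name, a description or a sequence. No role can therefore be given to an identifier, no pathway or marker list could be matched, and at most 2 identifiers are named in each direction. The table held 128861 identifiers, more than is usual for plant genes, so reads of 1 gene may lie under several identifiers, and near-identical copies may have divided reads between them. Of these, 57344 passed the filter on low counts and were tested.

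The 6 libraries held between 12976584 and 19916693 counts, and between 65274 and 69127 identifiers were detected in each by 1 count or more. Between 8.15% and 19.2% of the counts of a library lay in its 10 most abundant identifiers. The libraries of a cultivar differed from each other by more than counting noise, with a chi-square per degree of freedom of 41.7 to 76.9 among HG and 10.0 to 37.4 among EG, so each was counted once.

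HG replicate 1 was closer to the EG libraries than to the other HG libraries. Its Spearman correlation over all tested identifiers was 0.912 with HG replicate 2 and 0.927 with HG replicate 3, but 0.957 to 0.966 with the EG libraries. Its closest library in the series was replicate 2 of EG nucellus at 18 DAP, at 0.974. The first principal component of the 6 libraries held 42.9% of the variance. On it HG replicates 2 and 3 lay at 172.6 and 125.5, HG replicate 1 at -25.2 and the EG libraries between -120 and -47.4. On the second, with 25.8%, HG replicates 2 and 3 were the opposite extremes, at -125 and 164. HG replicate 1 lay there at -6.79 and the EG libraries between -43.7 and 12.2. HG replicates 2 and 3 were also closest to EG nucellus libraries of 18 DAP, at 0.940 and 0.937. They correlated with each other at 0.909, lower than either did with HG replicate 1, so all 3 HG libraries were scattered. The EG libraries correlated at 0.953 to 0.980 among themselves. HG replicate 1 was not alone in this: in 4 of the 36 libraries both correlations within the group lay below all 3 with the other cultivar. Over the other 30 libraries, 0 identifiers separated all 15 HG from all 15 EG libraries in either direction, so these values could not check the cultivar of a library. Main results are therefore given with and without HG replicate 1.

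The stage labels were examined in the same way. EG libraries of 32 DAP resembled nucellus of 28 DAP more than nucellus of 18 DAP, with median Spearman correlations of 0.947 to 0.950 against 0.925 to 0.93 over 6 libraries each. HG replicate 1 did likewise, at 0.957 and 0.944. HG replicate 2 had the opposite order, with 0.884 to 28 DAP and 0.912 to 18 DAP, as did HG replicate 3, with 0.897 and 0.923. Stages are numbered in the deposited columns, and reading these numbers as 18, 28 and 32 DAP in order of time is stated by no label.

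To check the captured tissue, identifiers were chosen from the 18 DAP libraries alone, as called and at least 32-fold apart between the tissues in both cultivars. This gave 116 identifiers of nucellus and 325 of integument. In the nucellus libraries of 32 DAP the nucellus set summed to 17317, 7079 and 25846 CPM (counts relative to library size) in HG and to 21715, 22297 and 23694 CPM in EG. The integument libraries of that stage held 175 to 599 CPM, so every nucellus library was far above every integument library. HG replicate 2 was the lowest of the 6 and HG replicate 3 the highest, and the cultivars overlapped (means of 16747 ± 9397 and 22569 ± 1017 CPM, SD, n = 3 each, exact permutation p = 0.4, two-sided). As a median level relative to nucellus at 18 DAP, the same set was higher in HG, at 68.9 ± 15.8% against 49.7 ± 5.43% (SD, n = 3 each, exact permutation p = 0.2). The direction thus differed between the summed and the median level. With 3 against 3 the smallest p this test can give is 0.1, so it could not have passed 0.05 for any values.

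Members of the integument set were chosen as low in nucellus at 18 DAP, which favours a low level. Integument RNA carried over and RNA made in nucellus cannot be told apart in them. The integument set was followed in the nucellus libraries with these limits. It summed to 132, 167 and 119 CPM in HG and to 140, 93.9 and 95.7 CPM in EG, against 3254 to 6070 CPM in the integument libraries of 32 DAP. Relative to integument at 18 DAP, the median member stood at 1.69, 1.35 and 0.829% in HG and at 1.95, 0.809 and 0.406% in EG. Both cultivars were thus low and overlapped, with mean summed levels of 140 ± 24.9 CPM and, in EG, 110 ± 25.9 CPM (SD, n = 3 each, exact permutation p = 0.3, with the same smallest value). None of the identifiers called between the cultivars belonged to either set. At the looser bound of 8-fold, 1 called identifier fell in the integument set (c71434_g1) and 1 in the nucellus set (c68615_g1), both described below.

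Against this background, edgeR's quasi-likelihood test called 29 identifiers higher in HG nucellus at 32 DAP, 0.0506% of those tested, and 2 lower, 0.00349%, or 0.0541% together. Called means a Benjamini-Hochberg adjusted p under 0.05 over all 57344 identifiers. At an unadjusted p under 0.05 there were 3406 higher (5.94%) and 2060 lower (3.59%). The fitted log2 difference was above 0 for 53.0% of identifiers and its median over all was 0.04, while 29 of the 31 calls were towards HG. Fitted differences of at least 2-fold were found for 6457 identifiers towards HG and 3531 towards EG, few of which passed the test.

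The 29 identifiers higher in HG differed by 1.62 to 5.48 on the log2 scale, with a median of 2.82. By fitted fold, 25 were at least 4-fold and 6 at least 16-fold higher in HG. The largest difference belonged to an identifier at 0.444, 2.17 and 0.458 CPM in HG and at 0, 0 and 0.0497 CPM in EG. Another of the 6 stood at 0.311, 0.0989 and 0 CPM in EG. Folds of such low levels are uncertain. None of them had 0 counts in all 3 EG libraries. Their mean level ranged from 1.02 to 496 CPM in HG, with a median of 21.2 CPM against 4.63 CPM over all tested identifiers, and from 0.0166 to 92.5 CPM in EG, with a median of 2.15 CPM against 4.47 CPM. Scaled to length, the median over the 6 libraries was 7.30 FPKM (fragments scaled to length and depth), against 2.80 FPKM over all tested identifiers. Their median length was 1771 bases and that of all tested identifiers 1988 bases. By average level over the series, 15 lay between 4 and 16 CPM, 9 between 16 and 64 CPM, 2 above 64 CPM, 3 between 1 and 4 CPM and none below 1 CPM.

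**Figure D1:**
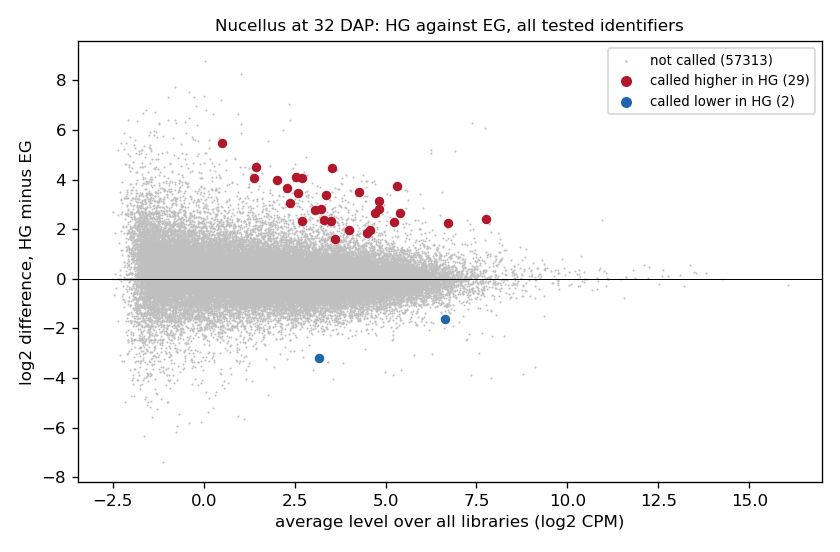
Fitted log2 difference between HG and EG nucellus at 32 DAP (vertical axis) against the average level over all 36 libraries in log2 CPM (horizontal axis), with 1 point per tested identifier. The 29 red points called higher in HG lie between 1.62 and 5.48, the 2 blue points called lower at -1.62 and -3.17, and many uncalled grey points of low level differ by as much.

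For all 31 called identifiers the HG and EG libraries did not overlap. Without a test on the fit, all 3 HG libraries lay above all 3 EG libraries for 9.67% of tested identifiers and below them for 8.80%. HG replicate 1 was the lowest HG library for 28 of the 29 identifiers, where this held for 31.2% of all tested identifiers. HG replicate 2 was the highest for 14 of them. The median level of the 29 was 2.90, 4.71 and 4.84 log2 CPM in HG replicates 1 to 3 and 1.62, 1.19 and 1.10 in the EG libraries. Their summed level was 468, 1366 and 1639 CPM in HG and 204, 218 and 181 CPM in EG. Every HG library was thus above every EG library, with HG replicate 1 nearest to EG.

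Leaving HG replicate 1 out raised the number of calls to 276, of which 191 were higher and 85 lower in HG, and all 31 identifiers were among them. They made up 0.333% and 0.148% of those tested. The omitted library itself lay above all 3 EG libraries for 180 of the 191, against 26.8% of all tested identifiers, and below them for 67 of the 85, against 23.7%. Both lists were chosen on these same EG libraries, which favours such an order, so the counts are a description. The medians of these lists were 2.62 and -2.06 on the log2 scale. Leaving out HG replicate 2, HG replicate 3 or EG replicate 2 left 0 calls, EG replicate 1 left 5 and EG replicate 3 left 1. Replicate 1 of EG nucellus at 28 DAP is outside the comparison but enters the shared estimate of the spread. Leaving it out gave 146 calls, 128 of them higher in HG. That library correlated with the others of its group at only 0.814 and 0.826. Of the 36 libraries it had the fewest identifiers detected, 55947, and the largest share of counts in its 10 most abundant identifiers, 33.8%. All 29 kept their sign when any one of the 6 libraries was left out. Since the cultivars did not overlap for any of them, that outcome was largely fixed in advance. Fitted alone, the 6 libraries gave 0 calls and 7106 identifiers at an unadjusted p under 0.05, and the 18 nucellus libraries gave 0 and 5085.

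Other tests called longer lists on the same libraries. DESeq2 called 442 identifiers, 363 of them higher (0.633%) and 79 lower (0.138%) in HG, and voom with sample quality weights called 1078, 782 of them higher (1.36%) and 296 lower (0.516%). Both lists contained all 29 higher and both lower identifiers. limma on log2(FPKM + 1) called 88, of which 80 were higher (0.140%) and 8 lower (0.0140%), and these held 22 of the 29 and both of the lower ones. A set of 72 identifiers was called by DESeq2, voom and limma on FPKM together. Counts were also simulated for all 36 libraries at their sizes. Each identifier had 1 dispersion and, before any change, 1 mean level for all groups. Only identifiers with a mean of at least 1 CPM were changed. There edgeR recovered 14 of 25 identifiers raised 4-fold in HG, 22 of 25 raised 8-fold and 1 of 25 raised 2-fold. Differences near 2-fold were thus mostly not detected in the simulation. The real HG libraries spread more than the EG ones, so these rates may not hold for them.

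**Figure D2:**
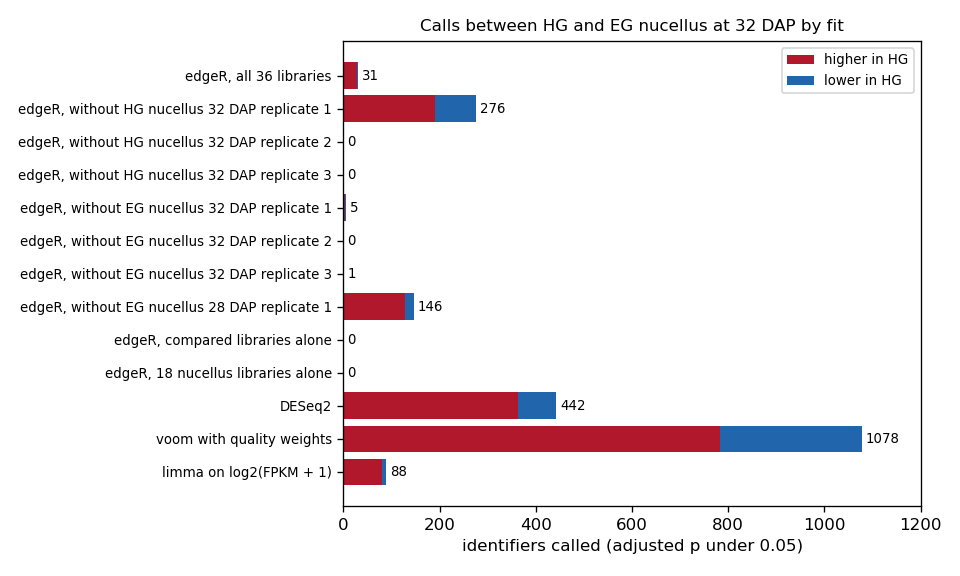
Number of identifiers called between HG and EG nucellus at 32 DAP (horizontal axis) in each fit, with calls higher in HG in red and lower in HG in blue. The number ran from 0, for example with only the compared libraries or without HG replicate 2, through 31 with all 36 libraries and 276 without HG replicate 1, to 1078 with voom.

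The identifier with the smallest p-value was c4851_g1, with an implied length of 1908 bases. It stood at 12.7, 27.9 and 36.7 CPM in the HG libraries (257, 476 and 561 counts) and at 3.47, 3.56 and 5.31 CPM in the EG libraries (78, 72 and 107 counts). The lowest HG library, replicate 1, was above the highest EG library, replicate 3. The means were 25.8 ± 12.1 and 4.11 ± 1.04 CPM (SD, n = 3 each), a log2 difference of 2.64 (SE 0.39, edgeR adjusted p = 0.00840), or 2.96 without HG replicate 1. Per length these were 14.5 ± 7.56 FPKM in HG and 2.30 ± 0.471 FPKM in EG.

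The difference in c4851_g1 was smaller at the earlier stages. At 18 DAP HG nucellus held 6.45 ± 4.01 CPM and EG nucellus 5.26 ± 1.13 CPM, and the libraries overlapped. At 28 DAP HG nucellus held 9.90, 14.7 and 7.85 CPM and EG nucellus 2.42, 5.49 and 3.26 CPM, without overlap (log2 difference 1.53, edgeR adjusted p = 0.173). Integument held more of it than nucellus in both cultivars at 18 DAP, with log2 differences, nucellus minus integument, of -2.78 in HG and -2.74 in EG, both called. At 32 DAP HG integument held 57.7 ± 13.9 CPM and EG integument 30.6 ± 5.65 CPM (log2 difference 0.91, edgeR adjusted p = 0.246). Measured against the mean of its own cultivar's integument, c4851_g1 stood at 22, 48.4 and 63.5% in HG nucellus and at 11.3, 11.6 and 17.3% in EG nucellus.

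The next identifier by p-value was c71434_g1, with an implied length of 2494 bases. HG nucellus held 4.39, 6.63 and 3.99 CPM (89, 113 and 61 counts) and EG nucellus 0.978, 0.544 and 0.149 CPM (22, 11 and 3 counts). All HG libraries were at least 61 counts deep, and the spread in EG rests on few counts. The means were 5.0 ± 1.43 and 0.557 ± 0.415 CPM (SD, n = 3 each), a log2 difference of 3.13 (SE 0.51, edgeR adjusted p = 0.0259). Without EG replicate 1 it was 3.80 and without HG replicate 1 3.21. Here HG replicate 1 was the middle of the HG libraries, unlike in the other identifiers called higher.

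In EG nucellus c71434_g1 was lower in every library of 32 DAP than in any of the other stages, where HG nucellus held 6.63 ± 2.89 CPM and EG nucellus 3.59 ± 0.586 CPM at 18 DAP, and 3.0 ± 1.78 and 2.41 ± 1.15 CPM at 28 DAP. Like c4851_g1 it was an integument transcript at 18 DAP, with log2 differences, nucellus minus integument, of -3.44 in HG and -3.93 in EG, both called. At 32 DAP HG integument held 53.5 ± 5.28 CPM and EG integument 32.0 ± 12 CPM (log2 difference 0.74, edgeR adjusted p = 0.486). Its nucellus level was 7.45 to 12.4% of the integument mean in HG and 0.465 to 3.06% in EG. The medians of the integument set given above were 0.829 to 1.69% in HG and 0.406 to 1.95% in EG. At the looser bound of 8-fold, where c71434_g1 was itself a member, they were 2.37 to 4.12% in HG and 2.14 to 3.50% in EG. Both sets were chosen as low in nucellus at 18 DAP and scaled to integument of 18 DAP. Percentages of c4851_g1 and c71434_g1 were scaled to integument of 32 DAP, so they are not directly comparable. The part of carried-over integument RNA in either identifier was not tested further.

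On the side lower in HG, c15909_g1, with an implied length of 686 bases, stood at 53.5, 40.1 and 36.2 CPM in HG and at 81.8, 142 and 175 CPM in EG. EG replicate 1 was the nearest to HG and HG replicate 1 the nearest to EG. The means were 43.3 ± 9.05 and 133 ± 47.4 CPM (SD, n = 3 each), a log2 difference of -1.62 (SE 0.32, edgeR adjusted p = 0.0445), or -1.82 without HG replicate 1. The integument of 32 DAP held 86.9, 66.9 and 82.5 CPM in HG and 170, 203 and 249 CPM in EG, and this difference was also called (log2 -1.40, SE 0.31, edgeR adjusted p = 0.0275). In nucellus the cultivars held 37.8 ± 6.77 and 46.7 ± 1.62 CPM at 18 DAP and 65.8 ± 25.1 and 98.5 ± 38.7 CPM at 28 DAP, HG first, and neither difference was called. The difference at 32 DAP was thus present in both tissues, and the test of nucellus against integument gave a log2 difference of -0.22 (SE 0.44).

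The other identifier lower in HG, c68615_g1, was nearly absent from integument. HG nucellus held 11.4, 2.35 and 4.97 CPM and EG nucellus 18.7, 73.4 and 78.0 CPM, so the nearest pair were the replicates numbered 1 of each cultivar. The means were 6.25 ± 4.68 and 56.7 ± 33.0 CPM (SD, n = 3 each), a log2 difference of -3.17 (SE 0.63, edgeR adjusted p = 0.0471). Without HG replicate 1 it was -3.97 (edgeR adjusted p = 0.0117), and without EG replicate 1 it was -3.62. Integument of the same stage held 0.237 ± 0.0322 CPM in HG, from 3 to 5 counts a library, and 1.35 ± 0.536 CPM in EG. At 18 DAP it was called higher in nucellus than in integument in both cultivars, with log2 differences of 4.71 in HG and 3.26 in EG. EG nucellus held 5.66 ± 1.12 CPM at 18 DAP and 21.0 ± 14.9 CPM at 28 DAP, and HG nucellus 2.41 ± 1.45 and 10.1 ± 6.0 CPM. Its implied length is 125 bases, shorter than a sequenced fragment usually is, so its length-scaled level of 44.6 ± 35.8 FPKM in HG and 468 ± 273 FPKM in EG is uncertain.

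**Figure D3:**
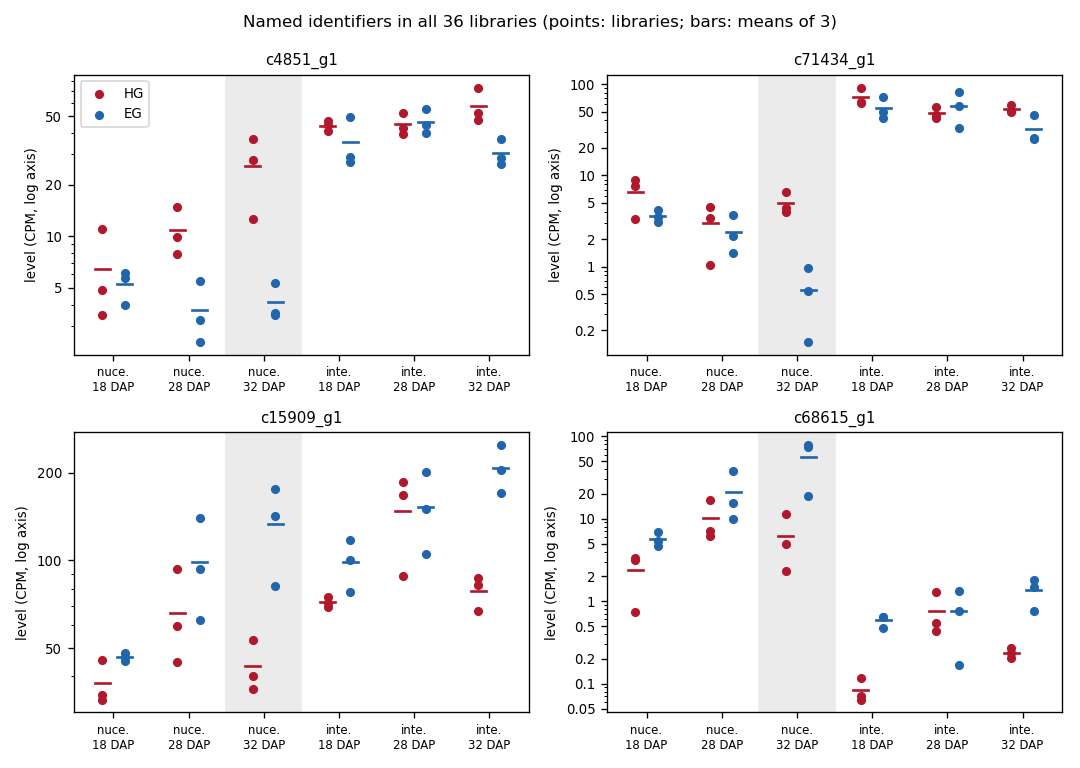
Level in CPM on a log axis of the 4 named identifiers in all 36 libraries (points, HG red and EG blue) with group means of 3 libraries (bars), by tissue (nuce., nucellus; inte., integument) and stage, and the compared groups shaded. HG points lie above EG points at 32 DAP in nucellus for c4851_g1 and c71434_g1, both more abundant in integument, and below them for c15909_g1 and c68615_g1, the last with under 2 CPM in each integument library.

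The 29 identifiers higher in HG were followed through the other groups, whose levels did not enter the contrast that chose them, although their spread entered the shared estimate. In nucellus at 18 DAP, 28 of the 29 had a log2 difference above 0, where 47.8% of all tested identifiers did. The median of the 29 was 0.63 against -0.03 over all, none was called, and 8 were higher at an unadjusted p under 0.05, against 3.52% of all tested identifiers. Without HG replicate 3 of that stage only 19 were above 0, with a median of 0.44, and without any other of the 6 libraries 26 to 28 were. In nucellus at 28 DAP, 10 of the 29 were above 0 against 48.1% of all, with a median of -0.07 against -0.03 over all and none called. At an unadjusted p under 0.05, 3 were higher and 1 was lower, against 4.85% and 7.51% of all. That median was 0.22, with 21 above 0, when replicate 1 of EG nucellus at 28 DAP was left out. The same cultivar difference was therefore small at 18 DAP and had no clear direction at 28 DAP.

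In integument at 32 DAP, 28 of the 29 were above 0, against 49.8% of all tested identifiers, with a median log2 difference of 0.96 where that of all was -0.002. There 3 were called higher, where 0.893% of all tested identifiers were, and 17 were higher and 1 lower at an unadjusted p under 0.05, against 7.80% higher and 5.15% lower of all. The summed level of the 29 was 915, 1739 and 1199 CPM in HG integument and 635, 633 and 575 CPM in EG integument, without overlap. Integument and nucellus libraries of the same replicate number deviated together from their group means, as described with the processing, so these integument libraries are not fully independent of the nucellus ones. Of the 2 identifiers lower in HG nucellus, c15909_g1 was also called lower in integument, where 0.124% of all tested identifiers were.

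**Figure D4:**
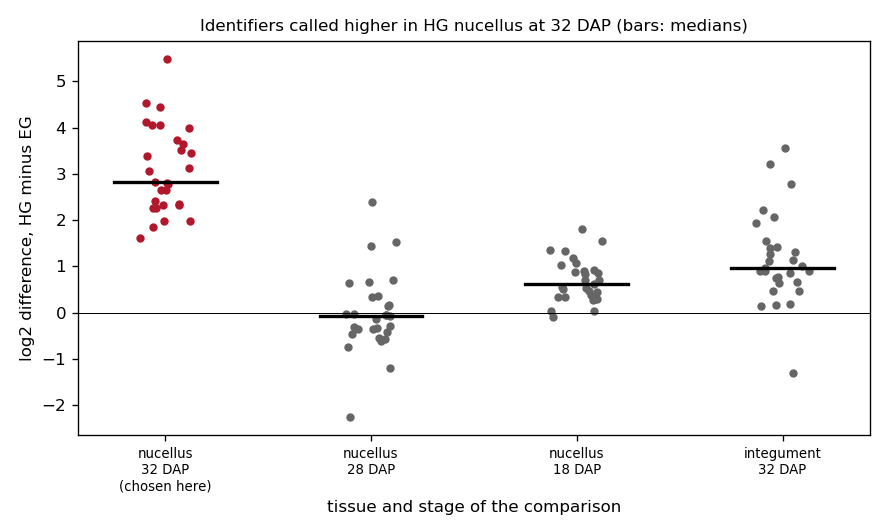
Fitted log2 difference, HG minus EG, of the 29 identifiers called higher in HG nucellus at 32 DAP (red, where the choice fixes the direction) and of the same identifiers in 3 comparisons on other libraries (grey), with medians as bars. The medians were 2.82 in the chosen comparison, -0.07 in nucellus at 28 DAP, 0.63 in nucellus at 18 DAP and 0.96 in integument at 32 DAP.

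The levels behind these differences are given by group. The median level of the 29 in HG nucellus was 3.38 ± 0.28 log2 CPM at 18 DAP, 2.23 ± 0.38 at 28 DAP and 4.15 ± 1.09 at 32 DAP (SD, n = 3 each). In EG nucellus it was 2.92 ± 0.13, 2.28 ± 0.51 and 1.30 ± 0.28 at these stages. In HG integument it was 4.03 ± 0.35, 3.09 ± 0.24 and 4.28 ± 0.60, and in EG integument 3.49 ± 0.27, 3.34 ± 0.51 and 2.92 ± 0.15. By these means HG was lowest at 28 DAP in both tissues, and EG was lowest at 32 DAP in both. The fitted step from 28 to 32 DAP had a median of 1.94 in HG nucellus, above 0 for all 29, and of -0.83 in EG nucellus, above 0 for 3, while over all tested identifiers the medians were 0.03 and 0.0008. From 18 to 32 DAP the medians were 0.74 and -1.63, above 0 for 26 in HG and for none in EG. These steps share their 32 DAP libraries with the comparison that chose the identifiers, so their directions are a description. HG nucellus at 32 DAP was the highest of the 6 nucellus groups for 24 of the 29, against 18.4% of all tested identifiers, and EG nucellus at 32 DAP the lowest for 25, against 13.6%. Among all 12 groups the numbers were 10, against 9.06%, and 20, against 5.88%. The choice of the 29 favours these orders.

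Several of the 29 were integument transcripts at the first stage. At 18 DAP, 5 of them were called higher in integument than in nucellus in HG and 12 in EG, where 5.51% and 4.53% of all tested identifiers were. Those called higher in nucellus numbered 2 in HG and 3 in EG, against 3.07% and 2.38% of all. The median log2 difference, nucellus minus integument, was -0.94 in HG and -1.36 in EG, where those of all tested identifiers were 0.01 and 0.009. At 32 DAP the median of the 29 stood at 35.4, 103 and 87.7% of the cultivar's own integument level in the HG nucellus libraries and at 22.6, 27.3 and 18.7% in the EG ones. By this median HG replicates 2 and 3 were near the integument level, and HG replicate 1 lay between them and EG. Single members varied widely, from 12.4 to 1498% in HG replicate 2 and from 7.45 to 1130% in HG replicate 3. In HG replicate 1 they ran from 8.20 to 520%, and in EG replicate 1 from 0 to 308%. The summed integument set in the same libraries was 132, 167 and 119 CPM in HG and 140, 93.9 and 95.7 CPM in EG, and its part in the levels of the 29 was not tested.

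**Figure D5:**
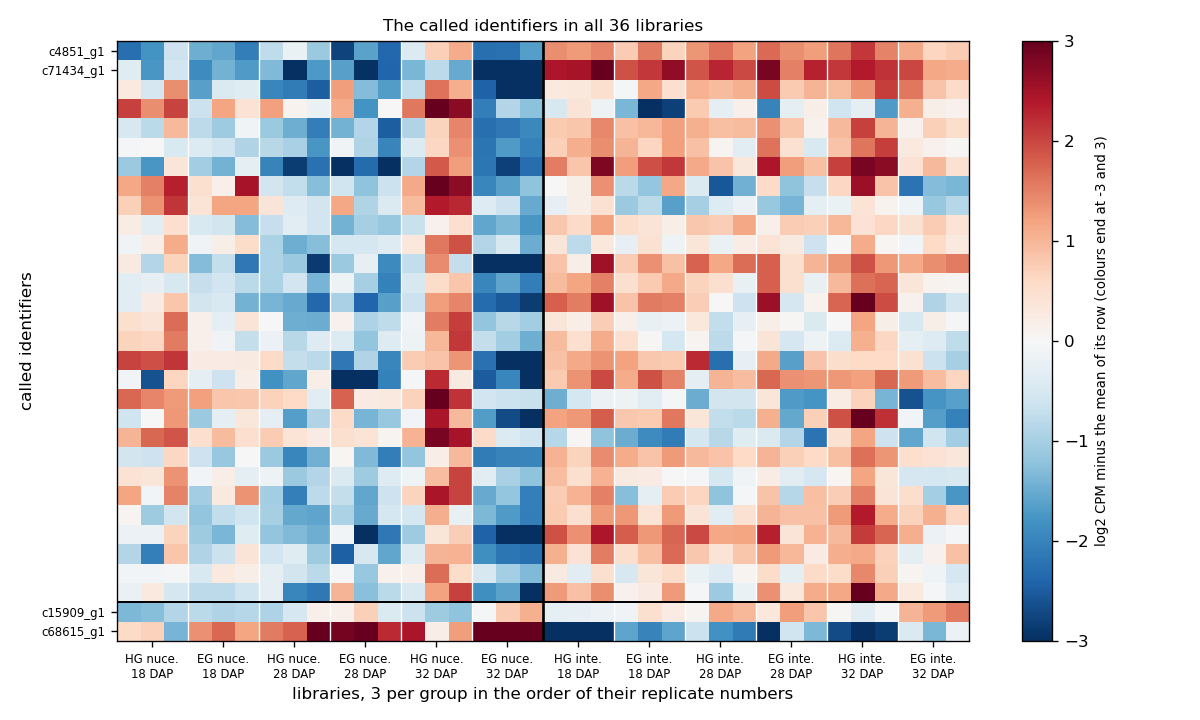
Level of the 31 called identifiers (rows, the 29 higher in HG nucellus at 32 DAP above the line and the 2 lower below it) in all 36 libraries (columns), as log2 CPM minus the mean of the row. The 3 EG nucellus libraries of 32 DAP are blue, below the row mean, for most of the 29 rows, HG replicates 2 and 3 of that stage are mostly red, HG replicate 1 lies between, and the integument libraries to the right of the line are mostly red.

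Whether the cultivar difference in nucellus at 32 DAP differed from that in integument was tested directly, as a difference of differences. edgeR called 0 identifiers, with 2732 (4.76%) at an unadjusted p under 0.05, of which 1343 were higher and 1389 lower. The smallest adjusted p, 0.0553, belonged to one of the 29. With the replicate number as a block, which pairs nucellus and integument libraries here, 21 were called, 4 higher and 17 lower, 1 of them among the 29. DESeq2 called 41, with 2 of the 29, and voom 47, with 1 of the 29. All 29 had a larger difference in nucellus than in integument, with a median of 1.71 against 0.02 over all, where 51.1% of all tested identifiers were above 0, and 18 did so at an unadjusted p under 0.05, against 2.34% of all. Since the 29 were chosen on the nucellus libraries of this test, that direction is a description. For c4851_g1 it was 1.73 (SE 0.52, edgeR adjusted p = 0.683) and for c71434_g1 2.39 (SE 0.66, edgeR adjusted p = 0.655). Leaving out HG replicate 1 of nucellus gave 2 calls.

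The cultivar difference in nucellus at 32 DAP was also tested against its mean at 18 and 28 DAP. edgeR called 0 identifiers, with 5838 (10.2%) at an unadjusted p under 0.05, of which 3943 were higher and 1895 lower, and the smallest adjusted p was 0.123. DESeq2 called 284, with 23 of the 29, and voom 467, with 17 of the 29. Without HG replicate 1 at 32 DAP edgeR called 36, 29 higher and 7 lower. All 29 were above 0, with a median log2 difference of 2.59 against 0.07 over all, where 53.6% of all tested identifiers were above 0, and all 29 had an unadjusted p under 0.05, against 6.88% of all. Again the choice of the 29 shares the libraries of 32 DAP with this test. The difference was 1.73 (SE 0.46, edgeR adjusted p = 0.241) for c4851_g1 and 2.53 (SE 0.60, edgeR adjusted p = 0.221) for c71434_g1. Both identifiers lower in HG were below 0 in it, at -1.18 (SE 0.38, edgeR adjusted p = 0.302) for c15909_g1 and at -2.03 (SE 0.73, edgeR adjusted p = 0.344) for c68615_g1.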

How the data were processed

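Read counts for each identifier, all whole numbers, and matching FPKM values were deposited by the authors. The submitters' processing notes name the tools cutadapt, Bowtie2, RSEM and DESeq. Not given in the sources used here are tool versions, settings, the genome or assembly, whether estimated counts were rounded and whether strand was used. Reads of a gene and its antisense partner may therefore be mixed. Per the labels' protocols, sequencing used instruments of more than one model, without a statement of which read what. Each column was matched to its sample through cultivar, tissue, stage and replicate.

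From the counts of all 36 libraries, group means were estimated with edgeR 4.0.16 (R 4.3.3, TMM normalisation, robust quasi-likelihood, 24 residual degrees of freedom, common biological coefficient of variation 0.439). filterByExpr (minimum count 10, minimum total 15) kept 57344 identifiers, which held 99.9% of the counts. Comparisons were contrasts, with Benjamini-Hochberg adjustment over all tested identifiers. CPM are TMM-normalised, and standard errors were derived from the F statistic. Lengths were implied by counts and FPKM. FPKM were tested with limma 3.58.1 on log2(FPKM + 1), where a fold change understates the change of low genes, and DESeq2 1.42.0 and limma's voom were alternatives, as were another filter, another normalisation, removal of a length trend, the libraries fitted, the replicate block, and leaving out in turn each library of the groups in a contrast. For HG against EG nucellus at 32 DAP and its test against integument, replicate 1 of EG nucellus at 28 DAP was left out as well. The script was tested on simulated data, in which 200 of 57344 identifiers were changed. Of the others, 1 was called in the simulated comparison of HG with EG, 3 in that of nucellus against integument and 5 in that of 32 DAP against the earlier stages.

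The identifiers named are the 2 with the smallest p in each direction among those called, without overlap and with a mean of at least 5 CPM in the higher group. The comparison, lists and rules were chosen with earlier results of these data known. Counting precision follows from the depths in the report, and covers counting error only, since the reads were amplified without molecular identifiers. Same-numbered nucellus and integument libraries of 32 DAP deviated together from their group means (correlations of 0.193 to 0.455 over identifiers, each best with its own number), so the numbers pair those tissues, as a hint from the data that no label states.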

Additional observations from a re-analysis of the deposited data

How the results depend on the processing

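All 29 identifiers higher in HG stayed above 0 in 35 alternatives, with medians of 1.90 to 3.21, while the number of calls moved. Since the cultivars did not overlap for any of the 29, that direction was largely fixed in advance. Against 31 calls in all, there were 442 with DESeq2, 1078 with voom, 55 with a mean of at least 5 CPM, 88 and, without a filter, 171 with limma on log2(FPKM + 1), 20 with a length trend removed, 0 with the compared libraries alone and 0 with the nucellus libraries alone. Leaving out single libraries gave 0 to 276. DESeq2's size factors gave 31, no filter on counts 29 and log2(FPKM + 0.1) 46. With the replicate block there were 32, of which 13 were shared, while same-numbered HG and EG libraries correlated at -0.065, -0.115 and 0.032, so the numbers do not pair the cultivars. For nucellus against integument, with 0 calls, DESeq2 gave 41, voom 47, no filter 5, a mean of at least 5 CPM 3, log2(FPKM + 1) 4 and 12 without a filter, the replicate block 21, and leaving out single libraries 0 to 5. For 32 DAP against the earlier stages, with 0 calls, DESeq2 gave 284, voom 467, log2(FPKM + 1) without a filter 28, the replicate block 2, and leaving out single libraries 0 to 36. The nucellus set reversed from lower in HG as summed CPM to 19.2 percentage points higher as a median relative level. Without a single library its summed difference ran from -10371 to -987 CPM, and that of the integument set from 16 to 44.8 CPM. None of the 4 named identifiers reversed in 19 alternatives, a direction largely fixed by choosing them without overlap. c4851_g1 ran from 2.11 to 2.96 and stayed called in 13, c71434_g1 from 1.32 to 3.80 in 13, c15909_g1 from -1.90 to -1.37 in 11 and c68615_g1 from -3.97 to -2.78 in 11, with the highest adjusted p at 0.233, 0.397, 0.543 and 0.543. The median of the 29 at 18 DAP ran from 0.44 to 0.86. The cause of these shifts was not tested. In the simulation, which was fitted to all 36 libraries with 3 on each compared side, differences near 2-fold were mostly not detected.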
